A study of Mus musculus with 11 samples.

Results

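The genes described are 10 transcription factor genes that T cells switch on when their antigen receptor is engaged: *Nr4a1*, *Nr4a2* and *Nr4a3* of the NR4A family, *Egr1*, *Egr2* and *Egr3* of the EGR family, and *Jun*, *Junb*, *Fosl1* and *Fosl2* of the AP-1 family. They were chosen by name and function, with earlier results of these data known. They are 10 of 25562 gene symbols in the expression table, and all 10 passed the filter of a mean of at least 1 TPM. TPM is a level scaled for transcript length and for the size of the library. RNA was measured in mouse CD8 T cells purified by kit from C57BL/6 spleens, in 11 libraries. There were 4 AOAH libraries, whose cells received 10 µg/mL of His-tagged recombinant human acyloxyacyl hydrolase, a lipase, together with ethanol. There were 3 PC libraries, whose cells received 60 µM PC16:0-20:4, a phosphatidylcholine carrying palmitic and arachidonic acid, and a PBS buffer with 10% glycerol. The 4 vehicle libraries had ethanol and that buffer. All cells went through 22 h of pretreatment and then 24 h of activation with anti-CD3 (1 µg/mL) and anti-CD28 (0.5 µg/mL), so vehicle cells were activated cells too, and no resting cells enter any comparison. The labels differ on whether AOAH was given before or during activation and on plate-bound antibody against beads, and no glycerol share is given for AOAH, so an effect of buffer and of AOAH cannot be told apart. Libraries are numbered by labelled batch, 1 to 4, and there is no PC library of batch 4. The labels do not say whether libraries are separate animals or cultures, and the p-values cover library-to-library spread alone, which may be technical.

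When the T cell receptor fires, MAP kinase and calcium signals reach factors already bound to DNA, and genes of these families are transcribed within the first hour without new protein synthesis. NR4A proteins are orphan nuclear receptors that need no known hormone, and in CD8 T cells they are known for limiting effector function and for their high level in chronically stimulated, dysfunctional cells. EGR proteins are zinc-finger factors. EGR2 and EGR3 are known in T cells for restraining receptor signalling and for anergy programmes, while EGR1 is the broadly used early growth response factor. JUN and FOS family proteins pair through leucine zippers to form AP-1, which binds with NFAT at cytokine genes. JUN is a strong activator, JUNB a partner of BATF, and FOSL1 and FOSL2 are FOS relatives that lack the strong activation domain of FOS.

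The stretches upstream of 5 members are shown because they hold, or lack, exact matches to some short elements known to bind factors that respond to receptor signals. Only exact matches to the elements named below were searched for, so variants and other elements were not covered. Sequences are from RefSeq promoter windows on GRCm38.p6, an older build than the mm39 named for the deposited values, and they run 5′ to 3′ on the strand of the gene. Capitals mark matches, on either strand, to TGACG (the core element bound by CREB and ATF factors), to GCGNGGGCG (an EGR element) or to the CArG box bound by serum response factor. The coordinates are chr15:101266596-101266845 (plus strand) for *Nr4a1*, chr2:57124004-57124253 (minus strand) for *Nr4a2*, chr4:48045079-48045108 (plus strand) for *Nr4a3*, chr10:67537729-67537868 (plus strand) for *Egr2* and chr4:95052223-95052472 (minus strand) for *Jun*. In the annotation of the same build the *Nr4a1* and *Egr2* stretches lie inside transcripts of those genes but in no exon, the *Nr4a2* stretch lies in no transcript, and the *Jun* stretch lies in an intron of the antisense transcript *Junos*.
Nr4a1: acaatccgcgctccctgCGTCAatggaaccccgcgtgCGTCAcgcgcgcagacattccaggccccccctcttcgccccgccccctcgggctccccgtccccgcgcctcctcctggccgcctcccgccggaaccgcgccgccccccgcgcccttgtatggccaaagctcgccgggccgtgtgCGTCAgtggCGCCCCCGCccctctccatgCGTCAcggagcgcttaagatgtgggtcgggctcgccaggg
Nr4a2: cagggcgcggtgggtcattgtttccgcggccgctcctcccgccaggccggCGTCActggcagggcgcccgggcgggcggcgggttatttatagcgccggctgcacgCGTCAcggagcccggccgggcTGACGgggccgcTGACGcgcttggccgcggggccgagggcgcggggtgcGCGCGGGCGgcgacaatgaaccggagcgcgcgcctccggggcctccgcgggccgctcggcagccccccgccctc
Nr4a3: tagcgtcccatgtCGTCAcatTGACGtctc
Egr2: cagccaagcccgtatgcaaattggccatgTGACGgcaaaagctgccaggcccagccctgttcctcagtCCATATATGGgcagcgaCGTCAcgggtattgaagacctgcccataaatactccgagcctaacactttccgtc
Jun: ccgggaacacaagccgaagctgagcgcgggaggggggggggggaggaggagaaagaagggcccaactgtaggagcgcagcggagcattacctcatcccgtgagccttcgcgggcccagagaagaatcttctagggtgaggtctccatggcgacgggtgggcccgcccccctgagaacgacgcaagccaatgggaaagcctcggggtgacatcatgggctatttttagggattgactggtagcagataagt
Windows were used for 7 of the 10 members, which were *Nr4a1*, *Nr4a2*, *Nr4a3*, *Egr2*, *Jun*, *Junb* and *Fosl2*. None was used for *Egr1*, *Egr3* and *Fosl1*. Within 250 bases before the start, *Nr4a1*, *Nr4a2* and *Nr4a3* each held 4 core elements. At least 4 were present in 0.137% of all 32817 windows of that length, and at least 1 in 17.7%. In *Nr4a1* the core elements began 233, 213, 69 and 40 bases before the start, and an EGR element, present in 4.7% of all windows, began 60 bases before it. In *Nr4a2* they began 200, 144, 123 and 111 bases before the start, with an EGR element at 74. In *Nr4a3* they began at 231, 213, 205 and 147, and the printed stretch shows those at 213 and 205. The *Egr2* stretch held 2 core elements, at 111 and 55 bases before its start, on both sides of a CArG box at 72, an element found in 1.47% of all windows. *Egr2* had 5 annotated starts: the printed stretch ends just before 1 of them, the windows of 2 later starts held the same elements, that of the start at 67537566 a CArG box and no core element, and that of the start at 67535499 none of these. *Junb* had 1 core element and *Fosl2* 1 EGR element, while the *Jun* window held neither of these nor a CArG box. All 250 bases of the *Fosl2* window and 152 of the 250 bases of the *Nr4a3* window lay in annotated exons of those genes. The full CREB element TGACGTCA (1.55% of all windows), the AP-1 element TGACTCA (4.46%) and the NR4A element AAAGGTCA (1.34%) matched in no member's window. These matches describe the letters only.

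Transcript levels differed widely among the members. Averaged over the 11 libraries, *Junb* at 186 TPM and *Nr4a1* at 166 TPM stood above *Nr4a3* at 89.0 TPM, *Egr3* at 60.1 TPM and *Egr1* at 52.8 TPM. *Nr4a2* at 44.3 TPM and *Egr2* at 43.1 TPM were next and were not separated by their spread, followed by *Jun* at 25.7 TPM, *Fosl1* at 14.6 TPM and *Fosl2* at 8.55 TPM. By rank among 11596 tested genes they ran between 761 for *Junb* and 7877 for *Fosl2*. TPM carries no information on depth. The levels of *Jun*, *Junb* and *Fosl1* are uncertain in 1 respect: their exons overlap those of *Junos* (at most 0.71 TPM), *Prdx2* (100 to 120 TPM) and *Ccdc85b* (7.82 to 9.91 TPM), and whether counting used strand is not given in the sources used here.

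**Figure D1:**
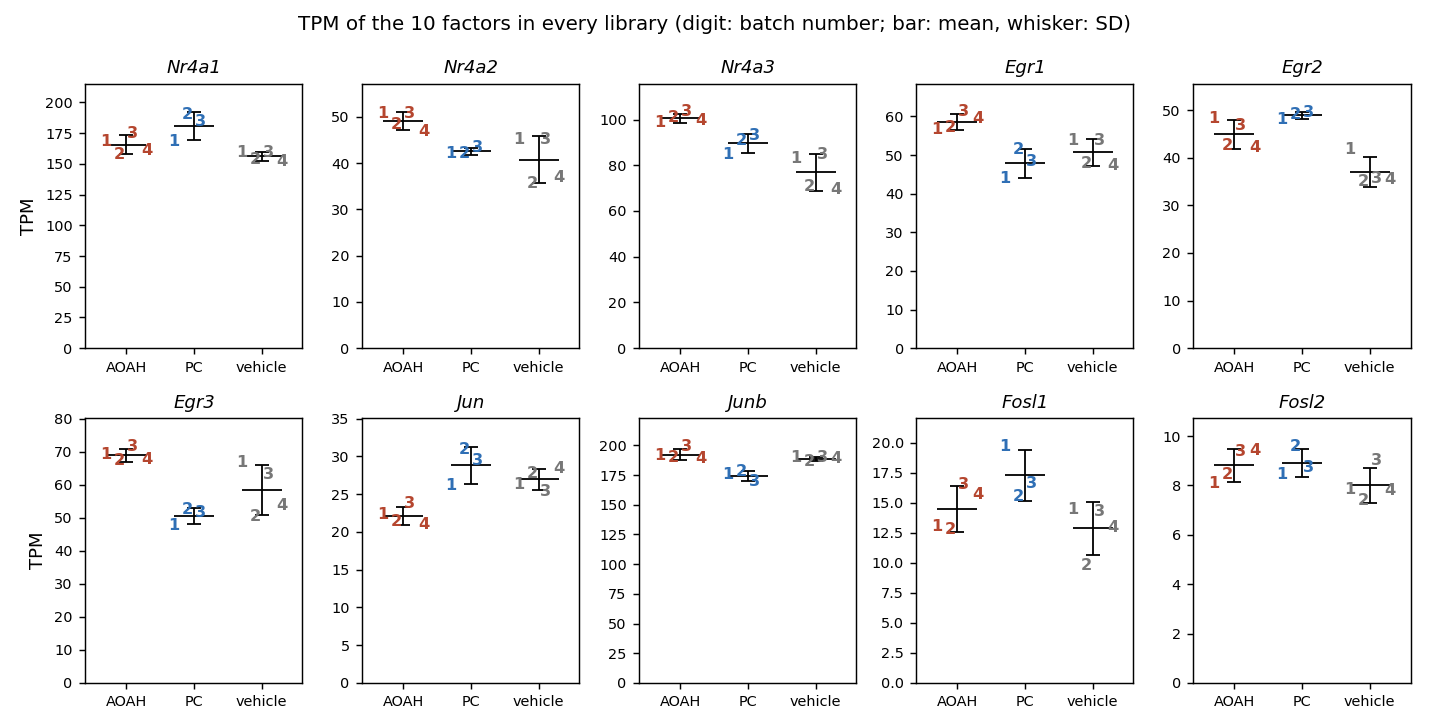
Level in TPM (y axis, from 0) of each of the 10 members in its own panel, for AOAH, PC and vehicle libraries; each digit is a library and gives its batch, the horizontal bar is the group mean and the whisker its SD. All 4 AOAH libraries lie above all vehicle libraries for Nr4a2, Nr4a3, Egr1, Egr2 and Egr3 and below them for Jun. How many of all genes lie apart in this way was not counted, so it is not read as particular to the members.

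Among the libraries themselves, genes of the T cell lineage were present in all 11. The summed level of 7 CD8 T cell markers was 1767 to 1800 TPM in AOAH libraries, 2255 to 2330 TPM in PC libraries and 1967 to 2008 TPM in vehicle libraries. *Cd4* stayed at 0.11 to 0.42 TPM, the B cell gene *Ms4a1* at 0 to 0.11 TPM and the NK cell gene *Ncr1* at 0 to 0.24 TPM. The 7 B cell genes summed to 152 to 163 TPM in AOAH, 186 to 195 TPM in PC and 173 to 181 TPM in vehicle libraries, with 5 of the 7 at 1 TPM or more and most of the sum in *Ighm*. The 4 NK cell genes summed to 109 to 116 TPM in AOAH, 95.5 to 101 TPM in PC and 121 to 128 TPM in vehicle libraries, carried by *Eomes* and *Klrk1*, which activated CD8 T cells also express. The 6 monocyte genes summed to at most 8.09 TPM, the 3 CD4 T cell genes to at most 6.86 TPM, and the megakaryocyte, dendritic and erythroid genes to at most 2.94, 1.05 and 0.92 TPM. The 1 neutrophil gene of 4 listed that was in the table reached 0.02 TPM. The CD8, B and NK sums moved with the groups without overlap, and their part in the results below was not tested. In bulk RNA, fewer cells of a type and less RNA per cell cannot be told apart.

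Cells given AOAH had more RNA for 4 of the 10 factors, *Nr4a3*, *Egr2*, *Nr4a2* and *Egr1*, and less for *Jun*. The *Nr4a2* and *Egr1* calls were lost in 7 and 4 of 16 alternative settings, and 25.2% of all tested genes were called. Cells given PC had more *Egr2* and *Nr4a1* and less *Junb*, where 19.5% of all tested genes were called. The *Nr4a1* and *Junb* calls were lost in 7 and 8 of 15 alternative settings. AOAH differed from PC in 6 of the 10 members, with more *Egr3*, *Egr1*, *Nr4a2*, *Nr4a3* and *Junb* and less *Jun*. Between AOAH and PC 45.8% of all tested genes were called. All changes were under 0.5 on the log2(TPM + 1) scale, on which the fold change of low genes is understated. Calls are limma's two-sided test across all genes at a Benjamini-Hochberg adjusted p under 0.05. AOAH 1 to 4 were compared with vehicle 1 to 4, PC 1 to 3 with vehicle 1 to 3 (vehicle 4 is not listed with the authors' PC table), and AOAH with PC directly. The first and second comparisons share vehicle libraries, so their values stand side by side without a test of likeness.

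**Figure D2:**
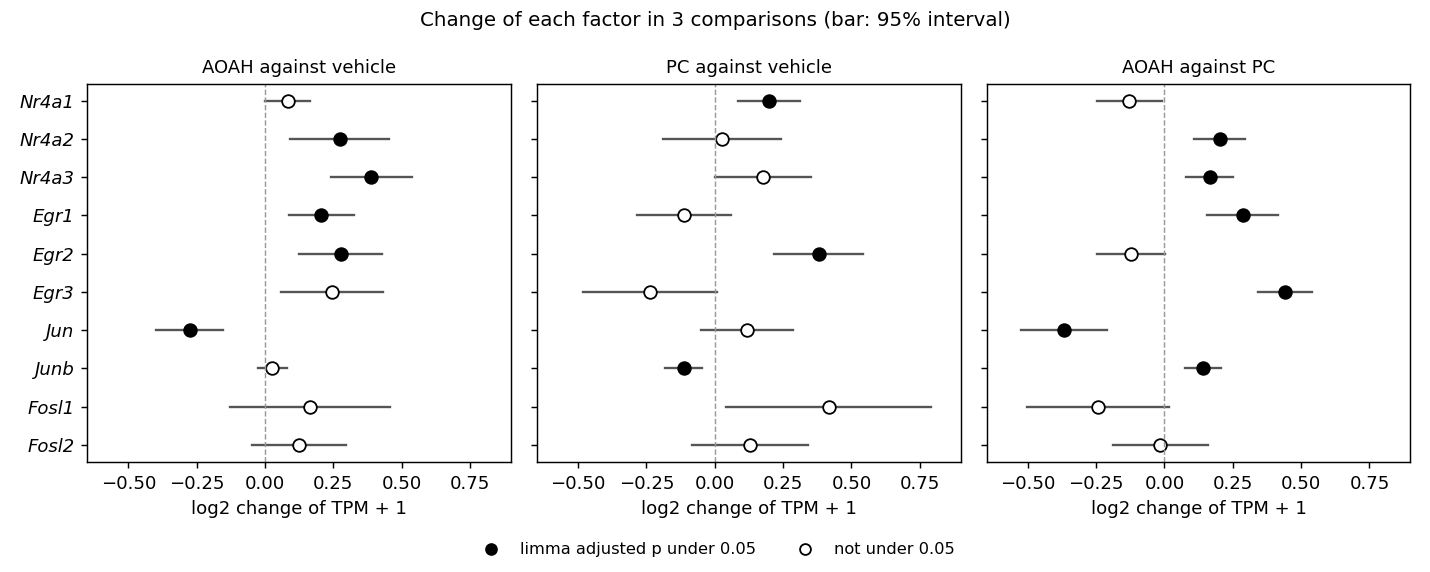
Difference of log2(TPM + 1) (x axis) with its 95% interval for each member, in a panel each for AOAH against vehicle, PC against vehicle and AOAH against PC; filled points have a limma adjusted p under 0.05. Jun lies at -0.28 for AOAH against vehicle, and Egr2 lies above 0 for both treatments against vehicle, at 0.28 with AOAH and 0.38 with PC.

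*Nr4a3*, the NR4A receptor with the widest change, had 98.7, 101, 103 and 99.5 TPM in AOAH libraries 1 to 4. It had 84.9, 91.1 and 93.0 TPM in PC libraries 1 to 3, and 82.8, 70.7, 84.6 and 69.3 TPM in vehicle libraries 1 to 4. Every AOAH library lay above every PC and every vehicle library, and the PC values lay just above the highest vehicle values. The difference of AOAH from vehicle was 0.39 ± 0.07 (SE) on the log2 scale (limma adjusted p = 0.00291), and it was called in all 16 alternative settings. For PC it was 0.18 ± 0.07 (adjusted p = 0.144, limma), not past the threshold. It passed in 1 fit over all 11 libraries, which adds vehicle 4 to the reference, at 0.22 (adjusted p = 0.0327, limma). Over the alternatives the adjusted p ran between 0.0327 and 0.311. AOAH exceeded PC by 0.17 ± 0.04 (adjusted p = 0.00818, limma), a call lost in that same fit over all libraries (adjusted p = 0.0653; 0.00326 to 0.0653 over the alternatives).

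*Nr4a2*, another receptor of the family, had 50.7, 48.3, 50.8 and 46.8 TPM in AOAH libraries, 42.1, 42.0 and 43.4 TPM in PC libraries and 45.1, 35.7, 45.1 and 37.0 TPM in vehicle libraries. The AOAH values lay above all others, and the PC values fell between the 2 high and the 2 low vehicle libraries. AOAH exceeded vehicle by 0.27 ± 0.08 (limma adjusted p = 0.0355). That call was lost without AOAH 1 (adjusted p = 0.0796), AOAH 2 (0.0655), AOAH 3 (0.0814), AOAH 4 (0.0523), vehicle 2 (0.0797) or vehicle 4 (0.0891) and with no filter on low values (0.0843), in a range of 0.0166 to 0.0891 over the alternatives. The difference of PC from vehicle was 0.03 ± 0.09 (adjusted p = 0.867, limma), with a 95% interval of -0.19 to 0.24. AOAH exceeded PC by 0.20 ± 0.04 (adjusted p = 0.00422, limma), which was lost in 1 fit over all 11 libraries (adjusted p = 0.0538; 0.00346 to 0.0538 over the alternatives).

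*Nr4a1*, which encodes NUR77, the widely used reporter of receptor signal strength, was the most abundant NR4A transcript. It had 168, 158, 175 and 161 TPM in AOAH libraries, 168, 190 and 185 TPM in PC libraries and 160, 154, 159 and 152 TPM in vehicle libraries. The PC values lay above all vehicle values, and AOAH 2 fell within the vehicle range. PC exceeded vehicle by 0.20 ± 0.05 (limma adjusted p = 0.0303). The call was lost without PC 2 (adjusted p = 0.0842), PC 3 (0.0953), vehicle 1 (0.0736), vehicle 2 (0.0802) or vehicle 3 (0.0752), with no filter (0.0858) and with batch as a block (0.0640), in a range of 0.0068 to 0.0953. The difference of AOAH from vehicle was 0.08 ± 0.04 (adjusted p = 0.129, limma), above 0 in 4 of 4 same-batch pairs. Same-batch libraries were no more alike across genes than others, so that count is a description only. AOAH minus PC was -0.13 ± 0.05 (adjusted p = 0.0763, limma). It passed without AOAH 3 (adjusted p = 0.0450) or PC 1 (0.0208), in 1 fit over all libraries (0.0405) and after quantile normalization (0.0144), in a range of 0.0144 to 0.235.

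The 3 NR4A transcripts summed to 315 ± 10.6 TPM in AOAH libraries, 313 ± 15.6 TPM in PC libraries and 274 ± 16.8 TPM in vehicle libraries (SD, n = 4, 3 and 4). Their make-up differed between the treatments although the sums lay close together. *Nr4a1* made up 52.5 ± 0.777% of the sum with AOAH, 57.8 ± 0.948% with PC and 57.1 ± 2.12% in vehicle, and the AOAH libraries (51.4 to 53.2%) did not overlap the PC libraries (57.0 to 58.8%) or the vehicle libraries (55.1 to 59.1%). *Nr4a3* made up 31.9 ± 0.820% with AOAH, 28.6 ± 0.408% with PC and 28.0 ± 1.20% in vehicle, and the AOAH range again lay apart. These shares are descriptions with no test of their own.

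*Egr2*, a restraint on T cell activation, had 48.2, 42.6, 46.9 and 42.1 TPM in AOAH libraries. It had 48.1, 49.0 and 49.5 TPM in PC libraries, and 41.7, 35.1, 35.6 and 35.5 TPM in vehicle libraries. All treated libraries lay above all vehicle libraries, AOAH 4 and AOAH 2 by little above vehicle 1. *Egr2* was called higher with both treatments, at 0.28 ± 0.07 with AOAH (limma adjusted p = 0.0161) and 0.38 ± 0.07 with PC (adjusted p = 0.0108), and both calls held in every alternative run. AOAH minus PC was -0.12 ± 0.05 with a 95% interval of -0.25 to 0.00 (adjusted p = 0.102, limma). It passed without AOAH 1 (adjusted p = 0.0412; 0.0412 to 0.235 over the alternatives).

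*Egr3*, which acts alongside *Egr2* in T cells, had 69.3, 67.4, 71.6 and 67.7 TPM in AOAH libraries, 47.7, 52.4 and 51.6 TPM in PC libraries and 66.7, 50.4, 63.1 and 53.7 TPM in vehicle libraries. The AOAH libraries lay above all others, and the vehicle libraries were split, with batches 1 and 3 high and batches 2 and 4 low. AOAH exceeded PC by 0.44 ± 0.04 (limma adjusted p = 1.04e-04), the widest difference between the treatments among the 10 members, called in all 15 alternatives. The difference of AOAH from vehicle was 0.24 ± 0.08 (adjusted p = 0.0585, limma), not past the threshold. It passed with a filter of 5 TPM (adjusted p = 0.0466), with batch as a block (0.0462), in 1 fit over all libraries (0.0360), after TMM rescaling (0.0348) and without vehicle 1 (0.0171) or vehicle 3 (0.0492), in a range of 0.0171 to 0.139. For PC minus vehicle it was -0.24 ± 0.10 (adjusted p = 0.161, limma), which passed without vehicle 2 (adjusted p = 0.0124; 0.0124 to 0.371 over the alternatives).

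*Egr1* had 56.5, 57.1, 61.2 and 59.4 TPM in AOAH libraries, 44.0, 51.4 and 48.3 TPM in PC libraries and 53.8, 47.8, 53.8 and 47.4 TPM in vehicle libraries. AOAH lay above both other groups, which overlapped. AOAH exceeded vehicle by 0.21 ± 0.05 (limma adjusted p = 0.0202), and the call was lost without AOAH 3 (adjusted p = 0.0540), AOAH 4 (0.0528), vehicle 2 (0.0566) or vehicle 4 (0.0524), in a range of 0.00612 to 0.0566. PC minus vehicle was -0.11 ± 0.07 with a 95% interval of -0.28 to 0.06 (adjusted p = 0.332, limma). AOAH exceeded PC by 0.29 ± 0.06 (adjusted p = 0.00399, limma), called in all 15 alternatives.

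With *Egr4* added, the EGR transcripts summed to 175 ± 5.35 TPM with AOAH, 149 ± 6.59 TPM with PC and 148 ± 14.0 TPM in vehicle. The sum lay close in PC and vehicle libraries, but its make-up did not. *Egr2* made up 25.7 ± 1.24% with AOAH, 32.9 ± 1.10% with PC and 25.1 ± 1.34% in vehicle, and its range with PC (31.9 to 34.1%) lay above those with AOAH (24.5 to 27.4%) and in vehicle (23.1 to 26.1%). *Egr3* made up 39.5 ± 0.174% with AOAH, 34.0 ± 0.232% with PC and 39.5 ± 1.61% in vehicle, and the PC range lay below both others.

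**Figure D3:**
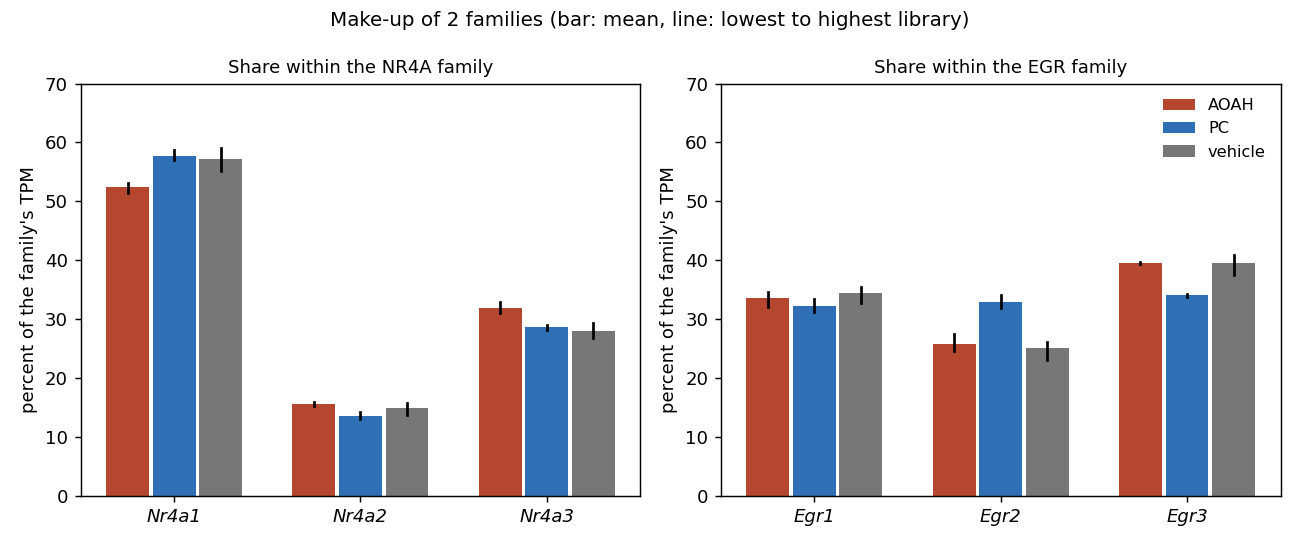
Mean share of each transcript in the summed TPM of its family, in percent, for the NR4A family (left) and the EGR family (right, Egr4 counted in the sum), with bars for AOAH, PC and vehicle and lines between the lowest and the highest library. The Nr4a1 bar is at 52.5% with AOAH against 57.1% in vehicle, and the Egr2 bar at 32.9% with PC against 25.1% in vehicle.

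*Jun* was the member called lower with AOAH. It had 22.3, 21.4, 23.7 and 21.0 TPM in AOAH libraries, 26.1, 30.9 and 29.5 TPM in PC libraries and 26.2, 27.8, 25.3 and 28.4 TPM in vehicle libraries. Every AOAH library lay below every other library. AOAH minus vehicle was -0.28 ± 0.05 (limma adjusted p = 0.00608) and AOAH minus PC was -0.37 ± 0.07 (adjusted p = 0.00299), and both calls held in every alternative run. PC minus vehicle was 0.12 ± 0.07 (adjusted p = 0.302, limma).

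*Junb*, the most abundant member, had 192, 190, 199 and 189 TPM in AOAH libraries, 175, 178 and 170 TPM in PC libraries and 190, 186, 190 and 189 TPM in vehicle libraries. The PC libraries lay below all others, while AOAH and vehicle overlapped. PC minus vehicle was -0.11 ± 0.03 (limma adjusted p = 0.0324). The call was lost without PC 1 (adjusted p = 0.0759), PC 3 (0.0972), vehicle 1 (0.09997) or vehicle 3 (0.0999), with no filter (0.0765), with batch as a block (0.0798), after TMM rescaling (0.0552) and after quantile normalization (0.0783), in a range of 0.00781 to 0.09997. AOAH exceeded PC by 0.14 ± 0.03 (adjusted p = 0.00488, limma), lost after quantile normalization (adjusted p = 0.0656; 8.86e-04 to 0.0656 over the alternatives). AOAH minus vehicle was 0.03 ± 0.02 with a 95% interval of -0.03 to 0.08 (adjusted p = 0.444, limma), and was -0.0069 after quantile normalization.

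*Fosl1*, which encodes FRA-1, had 13.0, 12.7, 16.5 and 15.7 TPM in AOAH libraries, 19.7, 15.5 and 16.6 TPM in PC libraries and 14.4, 9.74, 14.3 and 12.9 TPM in vehicle libraries. PC libraries lay above all vehicle libraries, and AOAH libraries overlapped both groups. PC minus vehicle was 0.42 ± 0.16 with a 95% interval of 0.04 to 0.79, the largest difference among the members for PC, and did not pass (limma adjusted p = 0.114). AOAH minus vehicle was 0.17 ± 0.13 (adjusted p = 0.389) and AOAH minus PC -0.24 ± 0.11 (adjusted p = 0.114, limma). *Fosl2*, which encodes FRA-2, had 8.07, 8.43, 9.37 and 9.41 TPM in AOAH libraries, 8.45, 9.57 and 8.72 TPM in PC libraries and 7.82, 7.39, 9.02 and 7.79 TPM in vehicle libraries. Its groups overlapped throughout, and AOAH minus vehicle was 0.13 ± 0.08 (adjusted p = 0.263), PC minus vehicle 0.13 ± 0.09 (adjusted p = 0.365) and AOAH minus PC -0.01 ± 0.07 with a 95% interval of -0.19 to 0.16 (adjusted p = 0.891, limma).

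Within the JUN family the sum was dominated by *Jund*, a relative that is highly transcribed in resting cells too. The sum was 720 ± 26.6 TPM with AOAH, 722 ± 14.2 TPM with PC and 748 ± 16.4 TPM in vehicle. *Jund* made up 70.2 ± 0.609% of it with AOAH, 71.9 ± 1.17% with PC and 71.2 ± 0.660% in vehicle. *Jun* made up 3.07 ± 0.113% with AOAH, 3.99 ± 0.337% with PC and 3.60 ± 0.152% in vehicle, and the AOAH range of 2.94 to 3.19% lay below the vehicle range of 3.38 to 3.71%. The FOS family was the least abundant at 32.2 ± 3.20 TPM with AOAH, 33.6 ± 1.64 TPM with PC and 29.8 ± 3.35 TPM in vehicle. At this late time after stimulation *Fosl1* was its most abundant transcript, with 44.8 ± 1.92% in AOAH, 51.3 ± 3.92% in PC and 43.0 ± 3.45% in vehicle libraries.

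Set against all genes, 5 of the 10 members were called with AOAH against vehicle, 4 higher and 1 lower, where 25.2% of 11561 tested genes were called, 13.1% higher and 12.1% lower. The median difference of the members was 0.19, against 0.01 over all tested genes. Below the vehicle mean lay 9 of 10 members in vehicle 2 and 8 of 10 in vehicle 4, and the PC comparison leaves vehicle 4 out. The member medians are therefore descriptions with no test. With PC against vehicle 3 of 10 were called, 2 higher and 1 lower, where 19.5% of 11628 genes were called, 8.27% higher and 11.2% lower, and the median was 0.12 for the members and -0.01 for all tested genes. Between AOAH and PC 6 of 10 were called, 5 higher and 1 lower, where 45.8% of 11596 genes were called, 24.3% higher and 21.5% lower, and the median was 0.06 for the members and 0.00 for all tested genes. With AOAH the member count was 3 without AOAH 3, AOAH 4, vehicle 2 or vehicle 4. With PC it was 1 with batch as a block, with no filter, and without PC 3, vehicle 1 or vehicle 3, *Egr2* being the member called in each. With batch as a block, 1572 genes were called for PC against 2270 without it.

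In the authors' deposited table for AOAH, 6 of the 10 members had an adjusted p under 0.05, against 17.1% of 12492 genes with an adjusted p. They were *Nr4a2* (log2 fold change 0.27, adjusted p = 2.14e-04), *Nr4a3* (0.39, adjusted p = 4.42e-13), *Egr1* (0.21, adjusted p = 0.00225), *Egr2* (0.28, adjusted p = 4.83e-04), *Egr3* (0.24, adjusted p = 6.77e-04) and *Jun* (-0.29, adjusted p = 0.00441). In the authors' deposited table for PC, 4 members passed, against 13.4% of 11109 genes. They were *Nr4a1* (0.21, adjusted p = 0.00283), *Nr4a3* (0.19, adjusted p = 0.0168), *Egr2* (0.40, adjusted p = 8.24e-05) and *Fosl1* (0.46, adjusted p = 0.0421). *Junb* did not pass in the authors' deposited table for PC, at -0.10 with an adjusted p of 0.279. Base means of the members ran between 360 for *Fosl1* and 8216 for *Nr4a3* in the authors' deposited table for AOAH.

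The members varied together within some libraries. In AOAH 3 all 10 members lay above their AOAH mean, and 9 of 10 lay below it in AOAH 2. Above the vehicle mean lay 8 of 10 in both vehicle 1 and vehicle 3, and below it lay 9 of 10 in vehicle 2 and 8 of 10 in vehicle 4. *Jun* went the other way from most members in vehicle 2 and vehicle 4, where it was above its mean. Below the PC mean lay 8 of 10 in PC 1, and above it 8 of 10 in PC 2. The members of a library share its RNA and its scaling, so these counts are no independent observations.

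**Figure D4:**
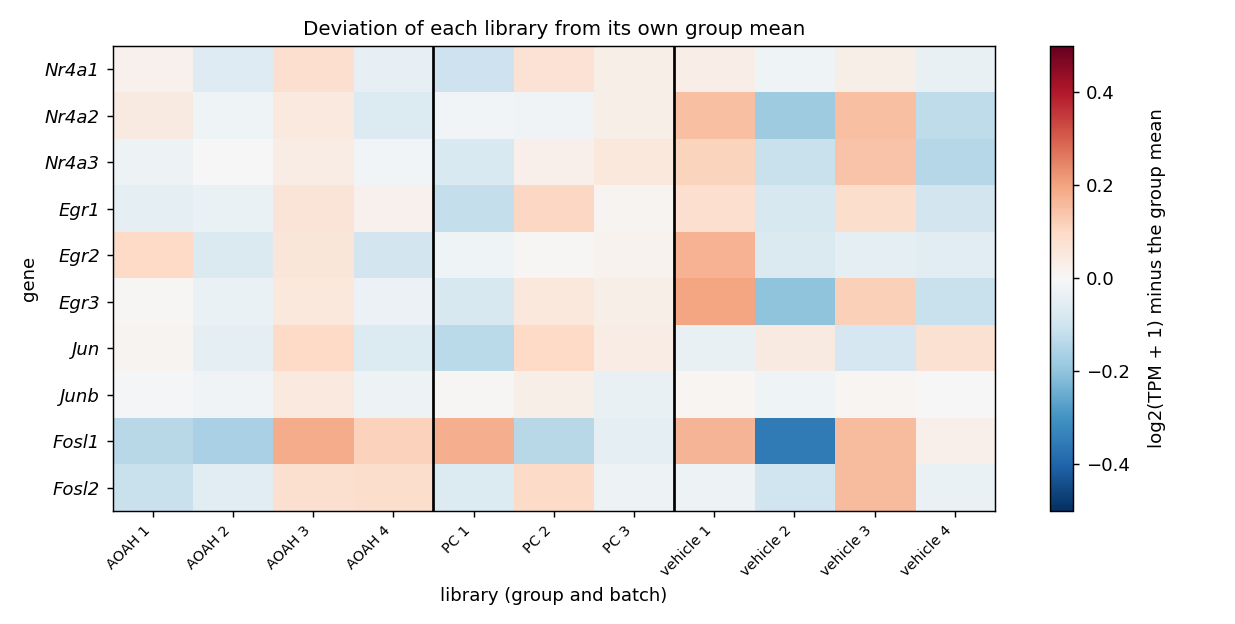
Difference of log2(TPM + 1) of each member (rows) in each library (columns) from the mean of its own group, in colour, with black lines between the AOAH, PC and vehicle groups. Vehicle 2 and vehicle 4 are below their mean for 9 and 8 of 10 members, and AOAH 3 is above its mean for all 10.

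For the lists that follow, counts stand against the shares of all tested genes called, which were 25.2% with AOAH, 19.5% with PC and 45.8% between AOAH and PC, and with 7 to 14 genes a list nothing is read as particular to a list. Of 9 other AP-1, NR4A and EGR genes listed, 7 were tested and 0 were called with AOAH by limma, where 1, *Egr4*, had an unadjusted p under 0.05. *Jund* had 505 ± 22.0 TPM in AOAH libraries and 533 ± 16.4 TPM in vehicle libraries (limma adjusted p = 0.144, n = 4 each). With PC 1 of 7 was called, *Batf3*, a JUN partner, at 5.55 ± 0.465 TPM in PC libraries and 14.0 ± 1.52 TPM in vehicle libraries (SD, n = 3 each), a difference of -1.20 (adjusted p = 8.62e-04, limma). No member differed by as much in that comparison. Between AOAH and PC 3 of 7 were higher with AOAH, which were *Batf3* (1.03, adjusted p = 1.48e-04), *Batf* (0.18, adjusted p = 0.0129) and *Egr4* (0.54, adjusted p = 0.00667, limma), the last lost once batch was a block (adjusted p = 0.0586; 0.00355 to 0.0586 over the alternatives).

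Of 11 tested genes that bind beside AP-1 or compete with it, 3 rose and 1 fell with AOAH (median 0.09), where 25.2% of all genes were called. *Irf8*, a partner of BATF and JUN, had 393 ± 13.9 TPM in AOAH and 318 ± 14.7 TPM in vehicle libraries (0.30, limma adjusted p = 6.40e-04). *Irf4*, whose level follows receptor strength, had 183 ± 2.52 TPM in AOAH and 160.5 ± 6.87 TPM in vehicle libraries (0.19, limma adjusted p = 0.00304). *Nfatc1* rose by 0.20 (adjusted p = 0.0151) and *Bach1*, a repressor, fell by 0.30 (adjusted p = 0.0161, limma). With PC 3 of 11 rose (median 0.13), where 19.5% of all genes were called. They were *Nfatc1* (0.30, adjusted p = 0.00295), *Bach2*, a repressor that competes for AP-1 sites (0.42, adjusted p = 0.0127, limma), and *Irf8*, the last lost in 6 of 15 alternatives. Against PC, AOAH had 2 higher and 6 lower of 11 (median -0.13), where 45.8% of all genes were called. The 2 higher were *Irf4* (0.25, adjusted p = 6.59e-04) and *Irf8* (0.15, adjusted p = 0.00404, limma). Of the 6 lower, *Bach1* (-0.45, adjusted p = 0.00429) and *Runx3* (-0.26, adjusted p = 0.00516, limma) had the lowest p.

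Among 14 tested inducers, which are serum response factor, its ETS cofactors, MEF2, CREB-family genes and MAP kinases, 3 rose and 1 fell with AOAH (median 0.04), near the 25.2% called over all genes. *Crem*, an activator or repressor at CREB sites depending on the isoform, had 39.2 ± 2.76 TPM in AOAH and 31.8 ± 1.41 TPM in vehicle libraries (0.29, limma adjusted p = 0.00539). *Elk4*, a serum response factor partner, had 29.5 ± 1.03 TPM in AOAH and 36.4 ± 2.17 TPM in vehicle libraries (-0.29, limma adjusted p = 0.00314). *Elk3* and *Mapk8* also passed, and lost the call in 5 and 6 of 16 alternatives. With PC 3 of 14 rose (median 0.08), near the 19.5% called over all genes, with *Crem* at 44.1 ± 3.05 TPM in PC and 32.3 ± 0.984 TPM in vehicle libraries (0.43, limma adjusted p = 0.00380), *Elk3* (0.26, adjusted p = 0.00957) and *Crtc2*. *Crtc2*, a CREB coactivator (0.28, adjusted p = 0.0152, limma), lost the call without PC 3 (adjusted p = 0.0507) or vehicle 1 (0.0558), in a range of 0.00464 to 0.0558. Against PC, AOAH had 1 higher and 3 lower of 14 (median -0.03), where 45.8% of all genes were called. The higher one, *Mapk8*, lost its call in 8 of 15 alternatives, and *Mef2a*, a lower one, in 9 of 15, and both lost it with batch as a block. *Elk4* and *Crtc2* were lower, at -0.45 (adjusted p = 3.45e-04) and -0.26 (adjusted p = 0.00338, limma).

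Genes described as downstream of these factors were read as lists only, and their link to the members was not tested. Of 11 EGR corepressors and described EGR2 or EGR3 target genes, 2 rose and 1 fell with AOAH (median 0.10), near the 25.2% called over all genes. With PC 5 rose and 1 fell (median 0.18), where 19.5% of all genes were called. Between AOAH and PC 1 was higher and 4 lower (median -0.11), near the 45.8% called over all genes. *Cd274*, which encodes PD-L1, had 26.4 ± 0.403 TPM in AOAH and 33.7 ± 1.06 TPM in vehicle libraries (-0.34, limma adjusted p = 3.00e-04, n = 4 each). In PC libraries it had 44.8 ± 1.93 TPM and in vehicle libraries 1 to 3 34.1 ± 0.859 TPM (0.38, limma adjusted p = 0.00272, n = 3 each). The direct difference of AOAH from PC was -0.74 (adjusted p = 7.58e-06, limma). With PC *Id3*, which restrains E proteins, rose by 0.47 (adjusted p = 0.00210), *Tnfrsf9*, which encodes 4-1BB, by 0.18 (adjusted p = 0.00800), and *Nab1*, an EGR corepressor, fell by 0.30 (adjusted p = 0.00947, limma). With AOAH *Tnfrsf9* rose by 0.16 (adjusted p = 0.0119) and *Crtam* by 0.18 (adjusted p = 0.0107, limma). Between AOAH and PC the 1 higher with AOAH was *Nab1* (0.29, adjusted p = 0.00255, limma). *Id3* (-0.38, adjusted p = 0.00258) and *Dgkz* (-0.20, adjusted p = 0.00263, limma) were among the 4 lower.

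Of 7 tested NR4A-linked genes, 3 rose with AOAH (median 0.09), where 25.2% of all genes were called, and 2 with PC (median 0.13), where 19.5% were. *Lag3*, an inhibitory receptor gene, had 40.5 ± 0.579 TPM in AOAH and 26.1 ± 2.43 TPM in vehicle libraries (0.62, limma adjusted p = 1.90e-04), and 40.4 ± 1.05 TPM in PC and 26.9 ± 2.23 TPM in vehicle libraries 1 to 3 (0.57, limma adjusted p = 0.00218). *Tigit*, another such receptor, had 48.1 ± 1.75 TPM in AOAH and 36.3 ± 4.43 TPM in vehicle libraries (0.41, limma adjusted p = 0.00582). *Pdcd1*, which encodes PD-1, was the other gene called, at 0.47 with AOAH (adjusted p = 0.00127) and 0.43 with PC (adjusted p = 0.0122, limma). Between AOAH and PC 1 was higher and 1 lower (median 0.00), where 45.8% of all genes were called. *Tigit* was higher with AOAH by 0.27 (adjusted p = 0.00221, limma). The lower one, *Ikzf2*, lost its call in 8 of 14 alternatives, batch as a block among them.

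Of 11 genes with described AP-1 sites, 5 rose with AOAH (median 0.11), where 25.2% of all genes were called, and 5 rose and 2 fell with PC (median 0.02), where 19.5% were. *Gzmb*, which encodes granzyme B, had 1890 ± 18.1 TPM in PC and 3324 ± 64.2 TPM in vehicle libraries (-0.81, limma adjusted p = 8.50e-06, n = 3 each). *Tnf* had 159 ± 5.77 TPM in PC and 117 ± 6.83 TPM in vehicle libraries (0.44, limma adjusted p = 0.00219), and the chemokine genes *Xcl1* (0.50, adjusted p = 6.84e-04) and *Ccl4* (0.44, adjusted p = 0.00129, limma) rose as well. With AOAH the chemokine gene *Ccl3* rose by 0.38 (adjusted p = 0.00749, limma). The calls of *Cd69*, *Il2ra* and *Ccl4* were lost in 2, 4 and 7 of 16 alternatives. Against PC, AOAH had 2 higher, with *Gzmb* at 0.76 (adjusted p = 5.25e-07) and *Il2ra* at 0.33 (adjusted p = 8.89e-05, limma), and 6 lower, where 45.8% of all genes were called. Of the 6 lower, *Ccl4* (-0.34, adjusted p = 2.29e-04) and *Xcl1* (-0.38, adjusted p = 2.33e-04, limma) had the lowest p.

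Of 11 other immediate early genes, 5 fell with AOAH (median -0.11), where 12.1% of all genes were called lower, while 4 rose and 1 fell with PC (median 0.11), where 8.27% were called higher and 11.2% lower. *Btg2*, an antiproliferative gene, had 24.9 ± 1.64 TPM in AOAH and 32.7 ± 1.08 TPM in vehicle libraries (-0.38, limma adjusted p = 0.00103), and 45.3 ± 2.24 TPM in PC and 32.8 ± 1.27 TPM in vehicle libraries 1 to 3 (0.45, limma adjusted p = 0.00223). *Ier5* had 32.9 ± 1.77 TPM in AOAH and 39.8 ± 1.18 TPM in vehicle libraries (-0.27, limma adjusted p = 0.00333). *Zfp36*, whose protein destabilises cytokine mRNA, had 18.5 ± 1.15 TPM in AOAH and 22.6 ± 1.02 TPM in vehicle libraries (-0.28, limma adjusted p = 0.00637). *Mcl1*, a survival gene, fell by 0.18 with AOAH (adjusted p = 0.00193, limma), and with PC *Klf6* rose by 0.39 (adjusted p = 0.00421, limma). The 2 other PC calls named by the rule, *Ier2* and *Zfp36*, were lost in 7 and 8 of 15 alternatives. Against PC, AOAH had 1 higher and 8 lower of 11 (median -0.21), where 24.3% of all genes were called higher and 21.5% lower, led by *Btg2* (-0.84, adjusted p = 2.23e-05) and *Zfp36* (-0.50, adjusted p = 2.71e-04, limma). Next by p were *Ier5* (-0.39, adjusted p = 3.48e-04) and *Klf6* (-0.37, adjusted p = 0.00147, limma).

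**Figure D5:**
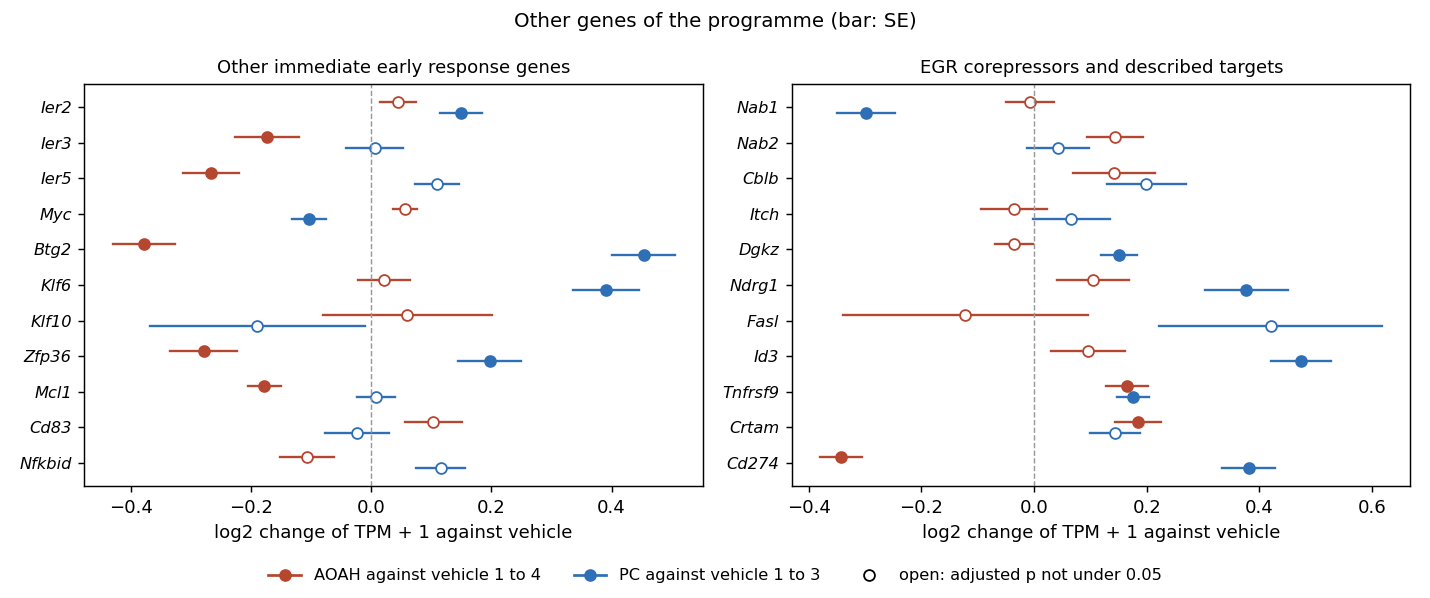
Difference of log2(TPM + 1) from vehicle (x axis) with its SE for the tested immediate early genes (left) and the EGR corepressors and described targets (right), with AOAH in red and PC in blue; filled points have a limma adjusted p under 0.05. Btg2 and Cd274 lie on opposite sides of 0 for AOAH, at -0.38 and -0.34, and for PC, at 0.45 and 0.38.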

How the data were processed

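Libraries were 11 samples of mouse CD8 T cell RNA. The authors quantified genes with RSEM against mm39, per the submitters' processing notes, and deposited log2 values of TPM plus 1. Their DESeq2 results, deposited by the authors, list a base mean (a signal, normalized counts averaged over libraries), a log2 fold change, a Wald score, which was not used, and p-values. The aligner, annotation and versions were not stated, nor whether molecular identifiers were used. Back-transformed TPM summed to 998406 to 998655 per library, with 11423 to 11739 genes at 1 TPM or more. Depth is unknown and no counts were available.

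The members, lists, markers and tests were chosen with earlier results of these data known. Tests used limma 3.58.1 in R 4.3.3 (trend and robust) on log2(TPM + 1), on genes averaging 1 TPM or more across the compared libraries, two-sided, with Benjamini-Hochberg adjustment over all tested genes and a threshold of 0.05. They were also run on simulated data with noise drawn independently for each gene and library. Such data hold no deviations shared by genes of a library, so they cannot show how those act on the calls. From each list, up to 4 genes of lowest p among those called are named in each comparison; *Batf3*, *Jund* and *Egr4* in other comparisons are given after their values were seen. Other settings tried were a pseudocount of 0.1 or 5, a filter of 5 TPM or none, 1 fit over all libraries, TMM rescaling, quantile normalization, vehicle 4 included for PC, batch as a block, and each library left out. The pairing comes from the batch labels: deviations of same-batch libraries from group means correlated across genes at -0.0144 on average (10 pairs, -0.105 to 0.125), and those of different batches at 0.00485 (30 pairs, -0.132 to 0.155). RefSeq promoter windows (GRCm38.p6) were matched by symbol. The receptor repertoire table was not used, and 1 marker gene is not reported here.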

Additional observations from a re-analysis of the deposited data

Results flagged for a closer look

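*Egr2* in vehicle libraries was the value that stood apart among the members. Vehicle 1 had 41.7 TPM, while the next vehicle library had 35.6 TPM, and the gap took up 0.918 of the range of the group, above Dixon's critical value for 4 libraries. Of 20 groups of 4 libraries looked at, 1 was flagged, and chance flags about 1 in 20. Without vehicle 1 the difference of *Egr2* from vehicle was 0.33 with AOAH (limma adjusted p = 0.00456) and 0.46 with PC (limma adjusted p = 0.00672), against 0.28 and 0.38 with it.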

How the results depend on the processing

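Of 460 values of the 10 members under the alternatives, 412 kept direction and side of the threshold, 29 lost the call, 13 gained it and 6 changed sign, all 6 in results that were not called. For the 68 results of listed genes that the naming rule picked, 967 of 1040 values kept both and 73 lost the call. All 68 were called to begin with, so none could gain a call, and the other listed genes were not rerun. Members called with AOAH numbered 3 to 6 with a library left out (5 with all). For PC against vehicle they numbered 1 with no filter, 1 with batch as a replicate block and 1 to 3 with a library left out (3 with all), and all genes called numbered 1339 with no filter, 1572 with the block and 1274 to 2083 with a library left out (2270 with all). Between AOAH and PC they numbered 5 to 7. The sign changed for *Junb* with AOAH after quantile normalization (-0.0069), for *Nr4a2* with PC without vehicle 2 (-0.08, within -0.0819 to 0.0829 with a library left out), and for *Fosl2* between AOAH and PC after quantile normalization (0.0463) and with a library left out (-0.0483 to 0.0325). The cause was not tested. Depth was not known for any library. No other member call changed with the block beyond *Egr3* with AOAH and *Nr4a1* and *Junb* with PC.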

Other observations

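Genes whose pattern over the 11 libraries was closest to the member of widest range in each family were found by the root mean square difference of centred log2(TPM + 1) among 11335 genes. Predicted genes without a symbol of their own were passed over, so nearest means nearest among the rest. Nearest to *Nr4a3* were *Cd160*, a receptor gene of cytotoxic lymphocytes, at 0.051 (72.0 ± 1.21 TPM with AOAH, 66.2 ± 1.81 TPM with PC and 56.2 ± 5.02 TPM in vehicle), *Plk2* at 0.055 and *Plek* at 0.057. Nearest to *Egr3* were *Nup160*, a nuclear pore gene, at 0.053 (36.8 TPM with AOAH, 26.2 TPM with PC and 31.1 TPM in vehicle on average), *Slco4a1* at 0.054 and *Nemp1* at 0.065. Nearest to *Fosl1* were *Sema7a*, which encodes a membrane-bound semaphorin, at 0.10 (114 TPM with AOAH, 132 TPM with PC and 97.6 TPM in vehicle on average), *Il1rl1* at 0.11 and *Hectd2* at 0.12. The libraries share their scaling, and these distances are descriptions.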
